A study of Mus musculus with 10 samples.

Results

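The Ly6/uPAR family comprises small cell surface proteins, most of them held in the outer membrane by a lipid (GPI) anchor, that share a compact disulphide-bonded fold named after the lymphocyte antigen 6 proteins and the urokinase receptor. Expression of 8 family genes (Ly6a, Ly6c1, Ly6d, Ly6e, Ly6g, Ly6k, Lypd3 and Plaur) was examined, out of 51707 genes that the deposited quantifications cover. The genes were chosen from earlier results of the same data, so their differences between the groups are given as a description and support nothing by themselves. All 8 had enough reads for the test across genes. Their 39 annotated transcripts were summed per gene.

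The libraries came from epithelial cells of pancreatic ductal adenocarcinoma (PDAC) grown in mice. KPC organoids, cultures from a genetic mouse model of PDAC, carried the label T6-LOH. They were transplanted orthotopically, in the pancreas itself, along with stellate cells of the pancreas (PSCs), which can become fibroblasts. In 5 libraries the PSCs were the line labelled PSC4 ROSA (egfr), taken here for the wild-type PSCs that the series title names. In the other 5 they were PSC4 EGFR KO B4, taken here for a single knockout clone of the same PSC line (Egfr KO PSC). Thus the genotype differed in the co-transplanted stellate cells and not in the sequenced tumour cells, which carried the same label in both groups. The series title names immunodeficient NSG mice, which lack lymphocytes and keep neutrophils and macrophages, and the strain label of every library reads C57BL/6J. Mouse ages and the sorting antibodies are not stated in the labels. Nor do the labels tie libraries to individual mice, so the spread and the p-values refer to libraries. Estimated counts in genes ranged from 39534055 to 53816086 per library. All 7 epithelial markers (Epcam, Cdh1, Krt7, Krt8, Krt18, Krt19 and Cldn4) were detected, with a summed level of 14160 to 25270 CPM, the count scaled to a common library total.

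Several family members are textbook markers of blood cells. The Ly6a product is Sca-1, a marker of haematopoietic stem cells, the Ly6g product marks mouse neutrophils, and Ly6C proteins mark monocytes and some endothelium. Others belong to epithelia: Ly6d and Lypd3 products are found in stratified squamous epithelium, and the Plaur product, uPAR, binds the protease urokinase at the surface of migrating and tumour cells. In bulk RNA of a sorted fraction, fewer cells of a type and less RNA per cell cannot be told apart.

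The genes lie in 2 clusters. On chromosome 15, 6 members (Ly6d, Ly6k, Ly6e, Ly6a, Ly6c1 and Ly6g, in this order) fell within a run of 15 protein-coding genes, and on chromosome 7, Plaur and Lypd3 were the ends of a run of 10. Some neighbours on chromosome 15 are near copies of each other, which matters for how short reads are divided between them. The first 90 bases of the coding sequence are given 5′ to 3′, because they show which members can be confused. They come from GENCODE M21 transcripts, and capitals mark bases that differ from Ly6c1 at the same position, without gaps.
Ly6c1: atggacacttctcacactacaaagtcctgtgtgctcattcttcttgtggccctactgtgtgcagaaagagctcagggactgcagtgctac
Ly6c2: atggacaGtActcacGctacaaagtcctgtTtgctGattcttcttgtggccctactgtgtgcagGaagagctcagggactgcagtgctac
Ly6a: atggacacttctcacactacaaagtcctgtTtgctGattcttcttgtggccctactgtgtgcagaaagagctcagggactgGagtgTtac
Ly6g: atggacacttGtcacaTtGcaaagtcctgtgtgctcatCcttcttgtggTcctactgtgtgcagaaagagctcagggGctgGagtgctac
Ly6e: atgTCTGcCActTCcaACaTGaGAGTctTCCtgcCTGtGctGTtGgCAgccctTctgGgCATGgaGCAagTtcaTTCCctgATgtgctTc

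Over this stretch Ly6a differed from Ly6c1 at 4 bases, Ly6c2 at 6, Ly6g at 7 and Ly6e at 45. Over the whole coding length of 396 bases, Ly6c1 and Ly6c2 were 97.7% identical. Of all 31-base words in the transcripts of Ly6c1, 46.8% also occurred in transcripts of another family gene, and 33.1% occurred in Ly6c2. The corresponding share was 30.1% for Ly6a, whose closest gene was Ly6c1 (21.9%), and 5.60% for Ly6g, whose closest gene was Ly6i (4.39%). For Ly6d, Ly6e, Ly6k, Lypd3 and Plaur it was 0% among the 42 other family genes compared. The separate values of Ly6a, Ly6c1 and Ly6c2 therefore rest on how shared reads were divided. Ly6g shares few of its words with the genes compared, but its counts are low beside those of Ly6a and Ly6c1. How many of its reads fell in shared stretches was not measured. Ly6a2, which lies beside Ly6g, was not among the genes compared. Of the 39 member transcripts, 32 had the same length in GENCODE M21 as in the deposited quantifications.

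Levels between genes are given as TPM, a share of all transcripts corrected for their length. Ly6e, an interferon-inducible gene whose product restricts coronavirus entry and binds a placental fusion protein, was the most abundant at 4011 ± 598.5 TPM (mean ± SD of all 10 libraries), which placed it at rank 22 of all genes. Ly6a followed at 2559 ± 575.4 TPM and rank 37. Ly6e exceeded Ly6a in 10 of 10 libraries, although the ranges of both genes overlapped. Ly6c1 (474.5 ± 179.7 TPM) and Plaur (370.5 ± 74.1 TPM) came next. They were not separated in level, since Ly6c1 was the higher in only 6 of 10 libraries. Ly6d stood at 147.4 ± 45.0 TPM, below every library of Plaur and above every library of Lypd3. Lypd3 (10.7 ± 3.67 TPM) exceeded Ly6g (2.29 ± 1.73 TPM) in 10 of 10 libraries, and Ly6g exceeded Ly6k (1.03 ± 0.786 TPM) in 5 of 10, so the last 2 were not separated. The levels thus ran from some of the most abundant mRNAs of the fraction to genes with very few reads.

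Together the 8 genes held between 0.6216% and 0.9512% of all TPM. Their summed level was 6267, 6216, 7126, 7462 and 7279 TPM in replicates 1 to 5 with Egfr WT PSC. It was 7487, 8935, 8890, 9512 and 6587 TPM in replicates 1 to 5 with Egfr KO PSC. Of the libraries with Egfr KO PSC, 4 of 5 were above every library with Egfr WT PSC, and replicate 5 was within their range. Ly6e and Ly6a made up most of the sum in every library, so it follows these genes.

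**Figure D1:**
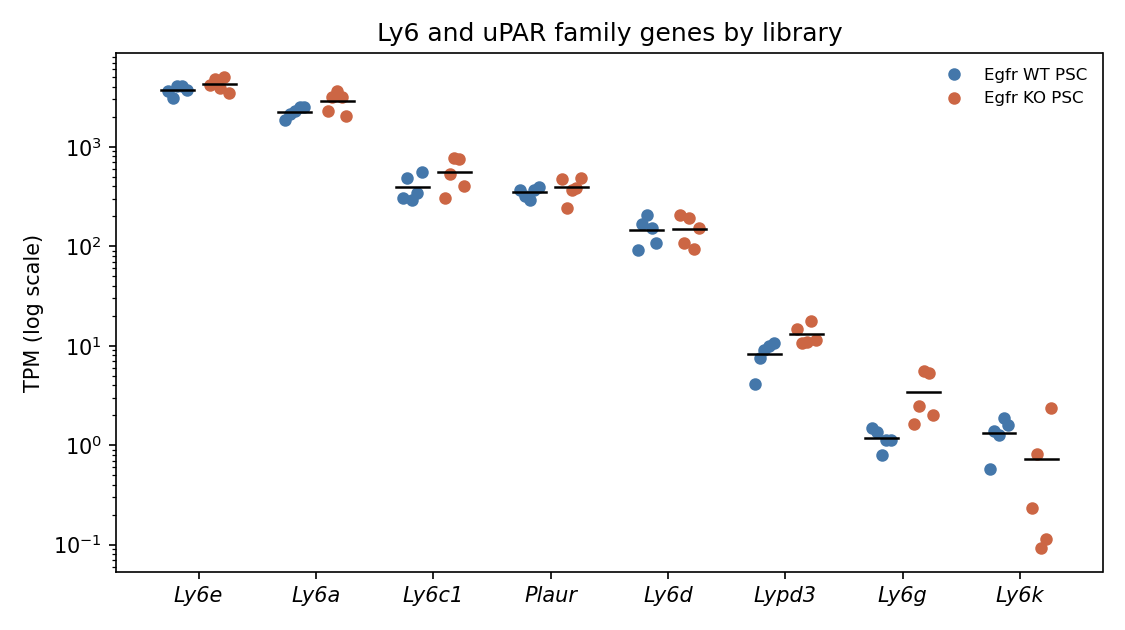
Levels of the 8 genes in TPM (log axis), each point a library, blue with Egfr WT PSC and orange with Egfr KO PSC (n = 5 each), with a black line at each group mean. Genes are ordered by mean level from Ly6e at 4011 TPM to Ly6k at 1.03 TPM, and the Ly6g points of the groups do not overlap.

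Differences between the groups were then read from one fit over all genes, edgeR's quasi-likelihood test on counts, as the log2 ratio of the knockout group (Egfr KO PSC) to the control group (Egfr WT PSC). The mean was higher with Egfr KO PSC for 7 of the 8 members, all but Ly6k, against 50.1% of the 17495 genes tested. For Ly6d the direction was not stable: its log2 fold change was 0.09, and it was -0.15 with limma voom. It was -0.04 without Egfr WT PSC replicate 1 and -0.05 without Egfr KO PSC replicate 1. No member passed an adjusted p of 0.05 in edgeR's test, as did 0% of all genes. At an unadjusted p under 0.05, 4 members were higher (Ly6g, Lypd3, Ly6a and Ly6e) and 0 were lower, where 3.55% of all genes were higher, 4.6% lower and 8.15% either. Because the members were picked with this contrast known, these counts describe the choice. Ly6g was the only member whose CPM did not overlap between the groups, which held upward for 0.777% of all genes and downward for 0.743%.

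**Figure D2:**
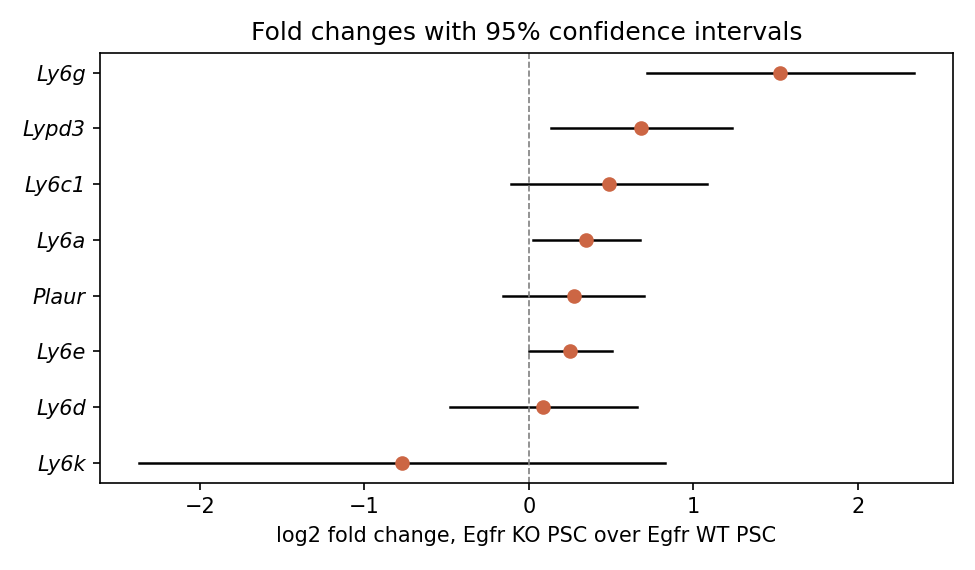
Fold change of each member (log2, knockout group over control group, n = 5 each) from edgeR, points with 95% confidence intervals, dashed line at no difference. The intervals of Ly6g, Lypd3, Ly6a and Ly6e lie above 0 before adjustment over all genes, and that of Ly6k is the widest, from -2.37 to 0.83.

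Ly6g, the neutrophil marker gene, had the largest difference at a very low level. Its estimated counts were 36, 44, 22, 27 and 29 in replicates 1 to 5 with Egfr WT PSC. They were 50, 73, 136, 129 and 54 with Egfr KO PSC. Every library with Egfr KO PSC was above every library with Egfr WT PSC, and replicates 3 and 4 of the knockout group stood well above the other 3. In CPM the means were 0.680 ± 0.162 and 1.97 ± 1.05 (SD, n = 5 each), a log2 fold change of 1.53 (SE 0.37, 95% interval 0.72 to 2.34; edgeR adjusted p = 0.376). DESeq2, the other count model, called the gene with a log2 fold change of 1.54 and an adjusted p of 0.0151. It called 0.208% of 20162 genes upward and 0.446% downward. In limma voom the adjusted p was 0.179. With limma on log2(TPM + 1), a scale that compresses low values, the log2 fold change was 0.92 (adjusted p = 0.443). When 1 library at a time was left out, the log2 fold change stayed between 1.31 and 1.71, with edgeR adjusted p-values from 0.158 to 0.782. All its reads were assigned to transcript Ly6g-202, and the other listed transcript stood at 0.

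The values of other neutrophil genes are set beside Ly6g. The 11 neutrophil markers summed to 310.7 to 1135 CPM with Egfr WT PSC and 353.3 to 1652 CPM with Egfr KO PSC. Nearly all of that was Ltf, the lactoferrin gene, which glandular epithelium also expresses, at a mean of 442.0 TPM. Without Ltf, a reduction chosen after the values were seen, the other 10 genes summed to 1.10 to 5.83 CPM with Egfr WT PSC and 1.52 to 2.67 CPM with Egfr KO PSC. S100a8, an abundant neutrophil calcium-binding protein gene, had a mean of 0.558 ± 0.521 CPM with Egfr WT PSC and 0.331 ± 0.140 CPM with Egfr KO PSC. For its partner S100a9 the means were 0.381 ± 0.280 and 0.188 ± 0.139 CPM. So the summed neutrophil markers other than Ltf overlapped between the groups, while Ly6g did not. In a single library, replicate 3 with Egfr KO PSC, Ly6g (3.14 CPM), Ly6a and the endothelial sum (69.6 CPM) were all at their highest. Replicate 4 with Egfr KO PSC had 3.07 CPM of Ly6g beside an endothelial sum of 20.3 CPM. Over the 10 libraries, Pearson r of the endothelial sum was -0.05 with Ly6g and 0.09 with Ly6a. After the group means were removed, r was 0.51 with Ly6g and 0.483 with Ly6a. Without the 2 libraries farthest from the median endothelial sum, r was -0.77 with Ly6g and -0.524 with Ly6a. The correlation thus depended on the libraries used. The part of endothelial cells was not tested.

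Ly6a and Ly6c1 were abundant neighbours on chromosome 15. Ly6a measured 960.3, 1220, 1142, 1308 and 1353 CPM in replicates 1 to 5 with Egfr WT PSC. In the knockout group it measured 1246, 1664, 1852, 1689 and 1173 CPM. The groups overlapped, with 3 of 5 knockout-group libraries above the highest control-group library. The log2 fold change was 0.35 (SE 0.15, 95% interval 0.02 to 0.68; edgeR adjusted p = 0.592).

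Ly6c1, one of the genes for the monocyte and endothelial antigen Ly6C, measured 145.4, 252.4, 135.6, 163.4 and 287.2 CPM with Egfr WT PSC. In the knockout group the values were 156.9, 260.0, 373.0, 374.1 and 216.1 CPM. Only replicates 3 and 4 of the knockout group were above all control-group libraries. Its log2 fold change was 0.49 (SE 0.27, 95% interval -0.11 to 1.08; edgeR adjusted p = 0.674). Its near copy Ly6c2 was far lower, at 1.87 TPM against 474.5 TPM for Ly6c1. In CPM, Ly6c2 averaged 0.722 ± 0.125 with Egfr WT PSC and 1.45 ± 1.57 with Egfr KO PSC, the latter raised by replicate 3 at 4.23 CPM.

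Endothelial and monocyte markers are relevant beside Ly6c1 and Ly6a. The 10 endothelial markers summed to 32.4 to 52.5 CPM with Egfr WT PSC and 14.7 to 69.6 CPM with Egfr KO PSC. All 10 had a lower mean with Egfr KO PSC, 0 of them at an unadjusted p under 0.05. Of all genes, 50.1% had a higher mean, and 4.6% were lower at that unadjusted level. The 11 monocyte and macrophage markers summed to 272.2 to 465.9 CPM and 223.0 to 335.1 CPM, and of 9 tested, 6 were lower at an unadjusted p under 0.05 in edgeR's test and 0 passed after adjustment. Cd14, which tumour epithelium can express, was the main part of that sum (243.8 TPM). Without Cd14 and Mrc1, also left out after the values were seen, the sums were 18.4 to 56.9 CPM and 19.1 to 30.7 CPM. Ly6c1 alone was above the whole endothelial sum in every library, which does not show the cells its reads came from. The part of such cells in the levels of Ly6a and Ly6c1 was not tested.

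Ly6e measured 2652, 2499, 2811, 2972 and 2820 CPM with Egfr WT PSC. Libraries with Egfr KO PSC gave 3265, 3573, 2833, 3829 and 2896 CPM. It varied least among the members, with a coefficient of variation of 6.57% in the control group and 13.1% in the knockout group. All 5 knockout-group libraries were above the control-group mean, and 3 were above its highest library. The log2 fold change was 0.25 (SE 0.11, 95% interval 0.00 to 0.50; edgeR adjusted p = 0.605).

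Ly6a and Ly6e are known to respond to interferon, so 11 interferon signalling and response genes were read from the same fit. All 11 had a lower mean with Egfr KO PSC, 5 of them at an unadjusted p under 0.05 and 0 after adjustment in edgeR's test. Of all genes, 4.6% were lower at that unadjusted level, and 50.1% had a higher mean. The median log2 fold change of the 11 genes was -0.41, beside 0.000409 for all genes. Ifi27, an interferon-induced gene, went from 48.7 ± 7.96 to 22.5 ± 3.47 CPM (log2 fold change -1.11, edgeR adjusted p = 0.105). Irf1, a transcription factor of the interferon response, went from 95.1 ± 13.7 to 71.5 ± 10.9 CPM (log2 fold change -0.41, edgeR adjusted p = 0.471). The summed level of the list was 306.1 to 351.9 CPM with Egfr WT PSC and 218.4 to 272.9 CPM with Egfr KO PSC, with no overlap. The means of Ly6a and Ly6e thus differed in the opposite direction to the means of these 11 genes.

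**Figure D3:**
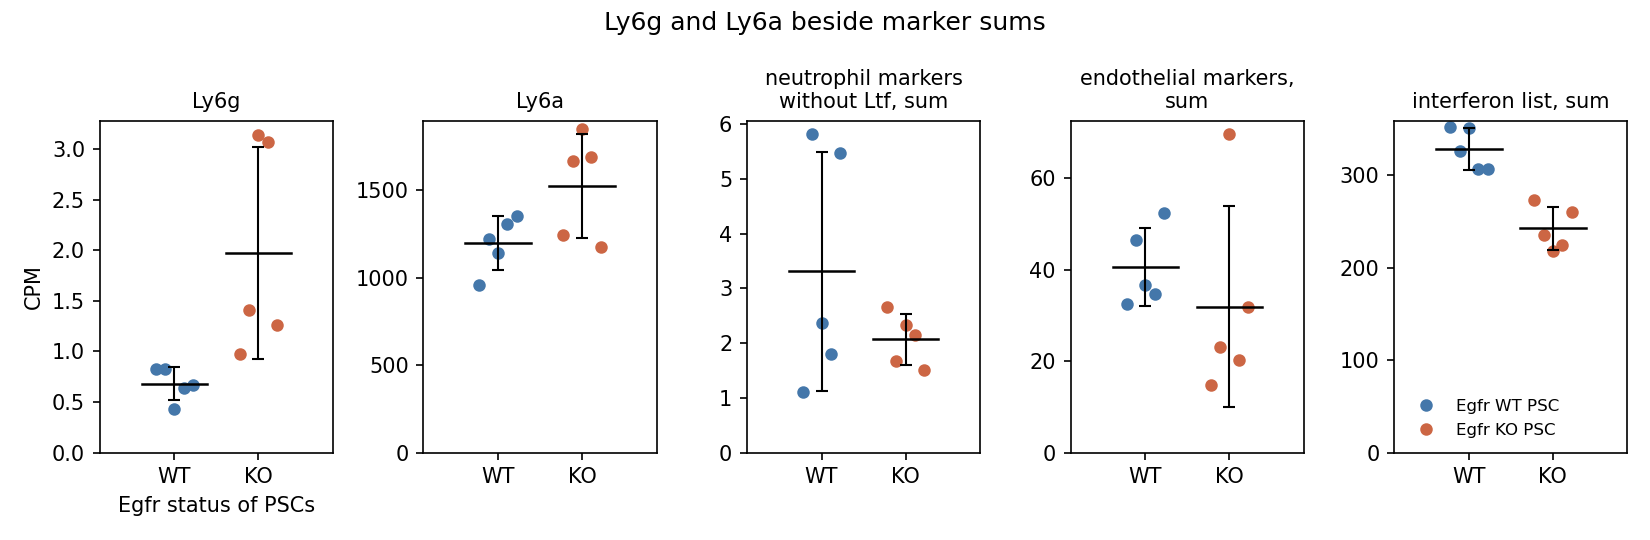
Levels of Ly6g and Ly6a and summed levels of neutrophil markers without Ltf, endothelial markers and interferon genes, in CPM on axes from 0, each point a library (n = 5 per group), lines at the mean and bars of 1 SD. Ly6g is higher and the interferon sum lower with Egfr KO PSC without overlap, while the neutrophil and endothelial sums overlap between the groups.

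Ly6d, Ly6k and Lypd3 are the members tied to squamous epithelium or germ cells. Ly6d, a keratinocyte and early B-lineage antigen, measured 38.0, 75.3, 82.8, 62.5 and 47.0 CPM with Egfr WT PSC. Libraries with Egfr KO PSC gave 90.2, 44.7, 80.6, 40.4 and 69.5 CPM. The ranges nearly coincided, and the log2 fold change of 0.09 had a 95% interval of -0.48 to 0.66 (edgeR adjusted p = 0.953).

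Ly6k, whose product is needed for sperm migration in mice, was at the edge of detection. Its estimated counts were 11, 27, 27, 28 and 32 with Egfr WT PSC. In the knockout group they were 6, 19, 1, 2 and 44. The highest and the lowest library both belonged to the knockout group, and the coefficient of variation there was 133%. The log2 fold change of -0.77 (SE 0.73, 95% interval -2.37 to 0.83; edgeR adjusted p = 0.813) became -1.89 without knockout-group replicate 5, the library with 44 counts, and -1.63 with limma voom. The interval included no difference, and the libraries of the knockout group differed more among themselves than the group means did.

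Lypd3 encodes C4.4A, a GPI-anchored relative of uPAR found on squamous epithelium and many carcinomas. It measured 3.99, 8.17, 8.89, 9.70 and 11.1 CPM with Egfr WT PSC. With Egfr KO PSC it measured 15.2, 10.7, 11.0, 18.1 and 12.4 CPM. The groups overlapped in CPM, with 3 of 5 knockout-group libraries above the highest control-group library. In TPM they just failed to overlap (lowest 10.76 against highest 10.71). The share of all genes without overlap was counted in CPM only. The log2 fold change was 0.68 (SE 0.25, 95% interval 0.13 to 1.24; edgeR adjusted p = 0.509). Of its reported partners, Agr2, which encodes a secreted disulphide isomerase that binds C4.4A, averaged 254.7 ± 87.0 CPM with Egfr WT PSC and 135.9 ± 61.9 CPM with Egfr KO PSC (log2 fold change -0.91, edgeR adjusted p = 0.498). The genes of the laminin-binding integrin, Itga6 and Itgb4, had log2 fold changes of 0.17 and 0.23 (edgeR adjusted p = 0.825 and 0.720).

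Markers of stratified epithelium are given beside Lypd3 and Ly6d. The 12 genes summed to 88.1 to 142.8 CPM with Egfr WT PSC and 109.8 to 184.7 CPM with Egfr KO PSC. Of 11 tested, 8 had a higher mean with Egfr KO PSC, 1 of them (Krt5, a basal keratin) at an unadjusted p under 0.05. Krt14, its usual partner and the most abundant of the list at 55.7 TPM, averaged 49.5 ± 20.9 and 70.03 ± 22.3 CPM. Trp63, the regulator that defines basal squamous cells, stood at 0.0631 TPM. The part of such cells in the Lypd3 difference was not tested.

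Plaur measured 279.1, 275.2, 215.6, 285.8 and 312.6 CPM with Egfr WT PSC. The values were 406.1, 187.0, 294.0, 330.0 and 435.3 CPM with Egfr KO PSC. Replicate 2 of the knockout group was the lowest of all libraries, and replicates 1, 4 and 5 were above every control-group library. The log2 fold change was 0.27 (SE 0.20, 95% interval -0.16 to 0.70; edgeR adjusted p = 0.745), and 0.13 in limma voom. It was 0.42 without knockout-group replicate 2 and 0.16 without knockout-group replicate 5.

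The rest of the urokinase system was read from a list of 17 ligands, proteases, inhibitors and co-receptors, of which 14 were above the expression filter. Their means were split evenly, 7 higher and 7 lower, with a median log2 fold change of 0.01 and 0 passing the adjusted threshold in edgeR's test. Urokinase itself (Plau) was low, at 2.77 TPM beside 370.5 TPM for its receptor. In CPM, Plau averaged 3.57 ± 1.63 with Egfr WT PSC and 5.27 ± 1.34 with Egfr KO PSC (log2 fold change 0.56, edgeR adjusted p = 0.672). Serpinb2, a clade B serpin that inhibits urokinase, averaged 6.04 ± 8.37 CPM with Egfr WT PSC and 1.60 ± 0.781 CPM with Egfr KO PSC, where replicate 2 alone had 20.5 CPM in the control group (log2 fold change -1.91, edgeR adjusted p = 0.604). The log2 fold change of Igf2r, which binds uPAR, was -0.20 (edgeR adjusted p = 0.670). That of Mrc2, a collagen receptor associated with uPAR, was -0.75 (edgeR adjusted p = 0.684). Plg, the gene of plasminogen and a liver product, was listed at 0 in all libraries.

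The share of each transcript within a gene was tested separately. It is taken from the same TPM values that make up the gene's total. A test of it therefore need not be independent of the contrast with which the members were picked. The share could be compared for the 4 members with more than 1 listed transcript and at least 10 counts in every library. Ly6g was left out, since 1 transcript held all reads. The protein-coding transcript Plaur-201 held 69.4, 73.4, 70.3, 72.9 and 70.5% of the gene's TPM in replicates 1 to 5 with Egfr WT PSC. With Egfr KO PSC it held 77.7, 72.3, 74.2, 83.4 and 80.1%. In 4 of 5 knockout-group libraries the share was above every control-group library, with replicate 2 the exception. The means were 71.3 ± 1.76% and 77.5 ± 4.45% (SD, n = 5 each), a difference of 6.26 percentage points (two-sided exact permutation p = 0.0238, adjusted over 4 members 0.0952). The difference missed the threshold after adjustment. It was 3.31 points when shares were taken from estimated counts (exact permutation p = 0.0318, adjusted 0.127).

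The complement of that share lay mostly in transcripts annotated with a retained intron, which are not translated to the full protein. The 3 such transcripts of Plaur held 25.2 ± 1.47% with Egfr WT PSC and 19.4 ± 3.75% with Egfr KO PSC. In level they stood at 88.1 ± 12.0 and 74.2 ± 16.2 TPM, while Plaur-201 stood at 248.8 ± 29.5 and 305.9 ± 84.6 TPM. By TPM, which scales for length, most of this came from Plaur-205, a short transcript of 347 bases at 54.1 ± 7.03 and 41.7 ± 7.99 TPM. By estimated counts most came from Plaur-204, a transcript of 2009 bases with 668.5 to 1385 counts per library, against 191.1 to 408.5 for Plaur-205.

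In Ly6e, the most abundant of 14 transcripts was Ly6e-209, also annotated as a retained intron. It held 50.3 ± 2.53% of the gene's TPM with Egfr WT PSC and 49.99 ± 2.18% with Egfr KO PSC (exact permutation p = 0.857, adjusted 0.857). Retained-intron transcripts as a class held 48.2 to 55.1% of Ly6e TPM in all 10 libraries. Ly6a-201 held 48.2 ± 2.58% and 47.6 ± 2.36% of Ly6a (exact permutation p = 0.690, adjusted 0.857). Ly6c1-201 held 87.2 ± 2.29% and 85.6 ± 0.970% of Ly6c1 (exact permutation p = 0.190, adjusted 0.381). Differences in these 3 genes were within the spread of the libraries.

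**Figure D4:**
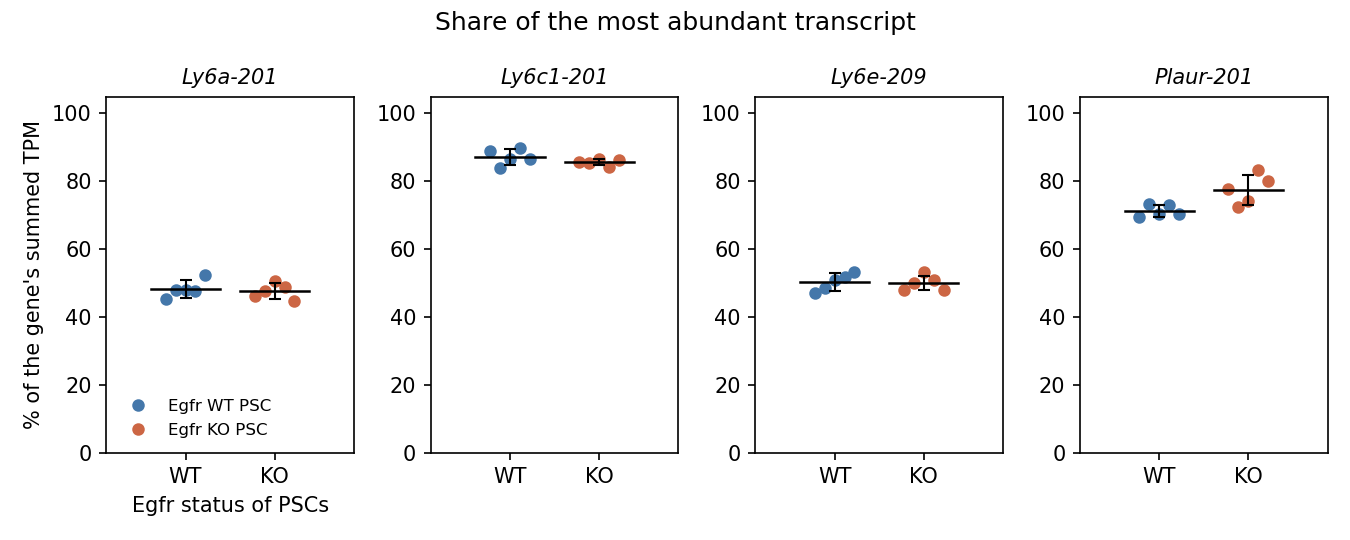
Share of the most abundant transcript in the summed TPM of its gene, in percent from 0 to 100, each point a library (n = 5 per group), lines at the mean and bars of 1 SD. Plaur-201 is higher in 4 of 5 libraries with Egfr KO PSC than in any with Egfr WT PSC, and the other 3 transcripts overlap throughout.

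Whether members varied together was examined over the 10 libraries for all 28 pairs, on log2 CPM. The permutations ignored the groups, so a difference between the group means enters both r and its p. Since the members were picked with that contrast known, these values are a description. Ly6a and Ly6c1 had the highest correlation (Pearson r = 0.821, permutation p = 0.00406, adjusted 0.0889; Spearman rho = 0.867, permutation p = 0.00206, adjusted 0.0577). It was 0.714 without the 2 libraries farthest from the median of Ly6a and 0.766 after the group means were removed. Ly6c1 and Ly6g followed (r = 0.786, permutation p = 0.00635, adjusted 0.0889; rho = 0.697, permutation p = 0.0307, adjusted 0.215), with 0.725 and 0.771 by the same checks. Ly6g and Ly6k ran opposite (r = -0.755, permutation p = 0.0135, adjusted 0.0943; rho = -0.612, permutation p = 0.0672, adjusted 0.292), but r was -0.15 without 2 libraries, so that relation rests on those. For Ly6g and Ly6k, r was -0.64 after the group means were removed. None of the 28 pairs passed after adjustment. Ly6a and Ly6c1 share sequence, and the part of shared reads in their correlation was not tested.

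The stretches upstream of Ly6c1 and Ly6g are shown because these genes are related in sequence and were the pair with the second highest correlation, which did not pass after adjustment. They are the 250 bases before the outermost listed start, 5′ to 3′ on the gene's strand, from RefSeq on GRCm38.p6, which is not the build of the quantification. Capitals mark TATAAA.
Ly6c1, chr15:75048838-75049087, minus strand: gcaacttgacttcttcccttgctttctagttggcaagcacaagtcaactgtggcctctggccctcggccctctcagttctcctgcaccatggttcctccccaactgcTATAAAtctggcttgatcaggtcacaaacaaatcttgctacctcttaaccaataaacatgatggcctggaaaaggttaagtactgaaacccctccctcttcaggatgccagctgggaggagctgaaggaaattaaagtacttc
Ly6g, chr15:75155011-75155260, plus strand: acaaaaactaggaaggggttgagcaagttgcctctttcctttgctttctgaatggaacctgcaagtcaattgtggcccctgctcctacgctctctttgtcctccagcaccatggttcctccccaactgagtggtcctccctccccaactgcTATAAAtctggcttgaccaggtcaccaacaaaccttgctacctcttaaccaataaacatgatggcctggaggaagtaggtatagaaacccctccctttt

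Both windows held TATAAA on the gene's strand, at position -143 from the Ly6c1 start and -99 from the Ly6g start, as did 7.59% of 32851 promoter windows of the same length. The longest run of identical bases between them was 37. That run began at position -110 in Ly6c1 and -66 in Ly6g and did not hold TATAAA. Entries were present for 4 members, and 4 other motifs were searched on both strands. The AP-1 motif TGANTCA (6.75% of windows) was found at position -69 in Plaur. The interferon-stimulated response element (2.98%), the gamma-activated site TTCNNNGAA (7.02%) and the NF-kB motif (3.33%) had no match in the windows of Ly6c1, Ly6g, Lypd3 or Plaur. A match describes letters in this window and shows no binding.

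Other family genes are given beside the members. The members were picked with this contrast known, so the genes left over are no reference for the members' differences. Of 40 further names, 35 were matched, 21 were above the expression filter, and their means were split 10 higher and 11 lower with Egfr KO PSC. Their median log2 fold change was -0.07, and 0 of 21 reached an unadjusted p of 0.05 in edgeR's test. The highest was Psca, prostate stem cell antigen, a surface protein of pancreatic tumours, at 43.5 TPM, which averaged 15.7 ± 7.82 CPM with Egfr WT PSC and 27.0 ± 15.8 CPM with Egfr KO PSC (log2 fold change 0.78, edgeR adjusted p = 0.656). Lynx1, a modulator of nicotinic receptors, followed at 20.0 TPM. Lypd2 (11.1 TPM), Ly6g6d (8.17 TPM), Lypd8 (7.12 TPM) and Lypd6b (5.08 TPM) were lower. Cd59b (4.33 TPM) and Cd59a (1.95 TPM) encode inhibitors of the complement membrane attack complex. Slurp1 (3.95 TPM) encodes a secreted family member, Gpihbp1 (3.69 TPM) the endothelial carrier of lipoprotein lipase. Ly6g6e (3.23 TPM), Ly6c2 (1.87 TPM), Ly6g5b (1.10 TPM) and Ly6g6c (1.04 TPM) complete the 14 with a mean of at least 1 TPM. Ly6l, Lypd4 and Lypd9 were listed at 0. None of these genes came near the levels of Ly6e and Ly6a.

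The members' products are GPI-anchored, and 30 genes of its synthesis, transfer and release were all above the filter. Of these, 17 had a higher mean with Egfr KO PSC and 13 a lower one, with a median log2 fold change of 0.02 and 0 at an unadjusted p under 0.05 in edgeR's test. The 3 of lowest p were Pigq (0.23, edgeR adjusted p = 0.664), Pgap2 (0.18, edgeR adjusted p = 0.693) and Pigp (-0.21, edgeR adjusted p = 0.715), given as log2 fold changes.

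Among 10021 genes with at least 5 CPM, those most like each member over the 10 libraries were named by their Pearson correlation, as a description that shares depth and library composition. For Ly6a they were Ten1 (0.962), Ppil1 (0.940) and U2af1 (0.938), and for Ly6c1 Cdkn1b (0.953), Rpl9 (0.948) and Pold4 (0.945). For Ly6e they were Hdgfl2 (0.940), Ppp1r10 (0.922) and Gpr19 (0.918), and for Ly6g Zfp52 (0.948), Mre11a (0.942) and Dtx2 (0.931). Ly6d was most like Cracr2b (0.956), Rdh13 (0.881) and Alkbh1 (0.878). Lypd3 was most like Phf20l1 (0.954), Ubl3 (0.914) and Rabac1 (0.906). Plaur was most like Elf1 (0.910), Numb (0.900) and Noct (0.886), and Ly6k was most like Zbtb21 (0.888), Pzp (0.851) and Cd81 (0.843). No member appeared among the 3 genes most like another member, but Ly6g and Ly6k, under 5 CPM, were not among the genes searched.

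Markers of further cell types are also set beside the members. For reference, 4.6% of all genes were lower at an unadjusted p under 0.05 in edgeR's test. The erythroid sum was 6.35 to 40.1 CPM with Egfr WT PSC and 0.856 to 3.40 CPM with Egfr KO PSC, and 4 of 4 genes tested were lower at an unadjusted p under 0.05 in edgeR's test, with 0 passing after adjustment. The fibroblast and PSC sum overlapped between the groups (360.5 to 916.8 and 338.2 to 1239 CPM), but most of it was Col3a1, at means of 411.2 ± 195.3 and 476.7 ± 350.1 CPM. Of its 9 genes, 6 had a lower mean with Egfr KO PSC, and 3 of these (Col1a1, Col1a2 and Dcn, genes of fibrillar collagen and a matrix proteoglycan) had an unadjusted p under 0.05 in edgeR's test, while 0 were higher at that level and 0 passed after adjustment. Col1a1 averaged 198.5 ± 55.2 CPM with Egfr WT PSC and 96.6 ± 27.2 CPM with Egfr KO PSC (log2 fold change -1.04, edgeR adjusted p = 0.321). Lymphocyte markers stayed under 0.555 CPM in sum, with Cd3g at 0. The part of these cells in the levels of the members was not tested.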

How the data were processed

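RNA of sorted tumour epithelial cells was sequenced in 10 libraries, 5 per group. Per the labels' protocols, RNA came from TRIzol and a micro column kit, and libraries from a single-cell and low-input kit whose PCR cycles depended on the input. The protocols name no molecular identifiers, so duplicate molecules were not removed by them. The authors deposited transcript tables with an estimated count and a TPM per transcript. Per the submitters' processing notes they used Salmon 1.9.0 and GRCm39 (mm39), with no annotation release named there. Counting of shared reads by estimation affects near copies most.

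Of 147828 deposited transcripts, 137063 (92.72%) were matched by identifier to GENCODE M21 (GRCm38, names only), holding 98.07 to 98.69% of the counts. The other 10765 were left out. Counts were summed per gene and rounded. The comparison used edgeR 4.0.16 in R 4.3.3 (quasi-likelihood F test, TMM, minimum count 10, no covariate), with Benjamini-Hochberg adjustment over 17495 genes and a threshold of 0.05. CPM are TMM-scaled. DESeq2 1.42.0, limma 3.58.1 (voom with sample weights, and log2 of TPM plus 0.1 or 1), other scalings, no filter, length offsets, the number in the file name as a factor, and leaving out each library were alternatives. Transcript shares were compared by exact two-sided permutation over 252 assignments, which cannot give a p below 0.00794. Correlations used 100000 permutations.

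The genes named were the 8 members, other family genes of at least 1 TPM, the 3 genes of lowest p in the other pathway lists plus Plau, the 3 genes most like each member, and defining or most abundant markers. Members and lists were chosen with earlier results of these data known. Some genes that this rule names are not reported here.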

Additional observations from a re-analysis of the deposited data

How the results depend on the processing

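No paired analysis was possible because the labels number no libraries across the groups. A number in the names of the deposited tables (8, 9 or 10), whose meaning is not stated, was entered as a factor. With it 0 genes were called, and the log2 fold changes of Ly6d and Ly6k were 0.00046 and -1.12. The count of genes called over the whole table was 0 in edgeR (1426 at an unadjusted p under 0.05), 132 with DESeq2, 3 with limma voom, 1 without a filter on low counts, and 1 or 2 with limma on log2 TPM (pseudocount 0.1 or 1). It was 0 to 4 when 1 library was left out: 2 without Egfr WT PSC replicate 5, 4 without Egfr KO PSC replicate 1 and 1 without Egfr KO PSC replicate 3. Of the members, DESeq2 called Ly6g (log2 fold change 1.54, adjusted p 0.0151), and no other alternative run called a member. Ly6d reversed with limma voom (-0.15), without Egfr WT PSC replicate 1 (-0.04) and without Egfr KO PSC replicate 1 (-0.047), in a range of -0.047 to 0.22 over libraries left out. The other 7 members kept their direction in all alternatives run. The Plaur-201 share difference passed after adjustment only without Egfr KO PSC replicate 2 (range 4.80 to 7.56 points over libraries left out, adjusted exact permutation p from 0.0318 to 0.222). Share differences of Ly6a ranged from -1.41 to 0.379 points and of Ly6e from -1.12 to 0.453 points, changing sign. The cause was not tested. Ly6g and Ly6k rest on 1 to 136 counts per library, which limits both.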
